A study of Saccharomyces cerevisiae with 24 samples.

Results

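The subunit genes of the 3 nuclear RNA polymerases of budding yeast were followed across 24 RNA-seq samples. Members were taken from a list of 31 subunit genes and matched to the deposited tables by systematic name, which found 28 of them among 5193 genes. All 28 passed the filter on low counts, as did 5142 genes in all. RPB5, RPB10 and RPC10, which belong to the subunits common to all 3 polymerases, are not analysed here. The 28 genes fall into 7 subunits of polymerase I only, 7 of polymerase II only, 10 of polymerase III only, 2 shared by polymerases I and III, and 2 shared by all 3 enzymes.

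The study asked whether the speed at which a liquid handling robot pipettes a yeast culture changes growth or gene expression. Every sample was wild-type W303, a laboratory strain of Saccharomyces cerevisiae, which the methods name W303-1B with marker mutations in ade2, can1, his3, leu2, trp1 and ura3. All cultures were grown in YPD without chemical treatment, and polyadenylated RNA was sequenced after pipetting at 50, 130, 210 or 290 µL/s. Each speed had 6 samples, made of 3 technical replicates from each of 2 biological replicates, and the biological replicates were separate cultures of identical clones. A sample is named by its speed, its biological replicate (B) and its technical replicate (T), as in 50 µL/s B1T3. The methods describe single-channel pipettes and the transfer of culture into tubes that had received water in amounts set by measured absorbance. What samples with the same technical replicate number had in common in their handling is not given in the sources used here. All groups shared 1 genotype and the cultures came from identical clones, so p-values measure the spread between these samples. The 8 samples of each technical replicate number came from only these 2 cultures. Tests between the numbers treat the 8 as independent, and tests between speeds treat the 6 of each speed as independent. A test between the biological replicates has a single culture on each side. The p-values and intervals of all these tests thus do not measure the spread between cultures. Library totals ran from 11555761 to 15464428 expected counts. The methods give the mating type as MATa, whereas the α-specific genes STE3 and SAG1 had mean levels of 323.8 and 263.4 TPM and the a-specific genes STE2 and BAR1 had 5.55 and 4.43 TPM.

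Polymerase I makes the large ribosomal RNA precursor in the nucleolus, polymerase II makes messenger RNA and many small RNAs, and polymerase III makes transfer RNA and the 5S ribosomal RNA. Each enzyme has a pair of large subunits that form the active centre, a stalk of paired small subunits, and core subunits that are common to several polymerases. In yeast, genes for polymerase I and III subunits are often coregulated with genes for ribosome assembly and follow growth conditions, as background from earlier work and not as a result of these data. Because libraries of polyadenylated RNA were made, the values are the messenger RNA of the subunit genes and not the products or the activity of the polymerases.

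Levels were compared between genes in TPM, a transcript abundance that is scaled for gene length and library size. The length is an effective one, shorter than the coding length by about the mean fragment length. Mean fragment lengths had a median of 186 bases, beside coding lengths from 333 bases in RPC11 to 5202 in RPO21. Short genes are thus scaled up most. The order of single genes of unlike length depends on this scaling and was not checked with another. The mean over the subunits of polymerase II only was 145.1 ± 4.7 TPM (SD, n = 24 samples), against 78.2 ± 19.1 for polymerase I only and 43.2 ± 6.9 for polymerase III only. RPC40 and RPC19, shared by polymerases I and III, averaged 158.6 ± 29.9 TPM, and RPO26 and RPB8, shared by all 3 enzymes, averaged 355.9 ± 43.8 TPM. The means of both shared classes were thus above those of the 3 specific classes, and the median of all genes kept was 53.6 TPM. In the ratio of class means, polymerase I was at 0.536 of polymerase II and polymerase III at 0.297 of polymerase II. Polymerase II genes varied least, with coefficients of variation over the 24 samples of 3.54% to 9.76%, while the other 21 genes had 10.2% or more.

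Among the subunits common to all 3 enzymes, RPO26 (YPR187W) had the highest level of the 28 genes at 405.1 ± 56.9 TPM, and RPB8 (YOR224C) followed at 306.7 ± 33.2 TPM. RPO26 was above RPB8 in 24 of 24 samples, and RPB8 was above the next gene, RPB4, in 24 of 24. RPC40 (YPR110C) and RPC19 (YNL113W) form the core dimer of polymerases I and III, the counterpart of the RPB3 and RPB11 dimer of polymerase II, and had 182.4 ± 34.5 and 134.7 ± 25.9 TPM. RPC19 did not stand apart from its neighbour in the order, being above RPB3 in 9 of 24 samples.

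Within polymerase II, RPB4 (YJL140W) and RPB7 (YDR404C) encode the stalk and had 236.2 ± 9.3 and 158.5 ± 8.5 TPM. RPB11 (YOL005C) was at 157.9 ± 9.8 TPM and could not be separated from RPB7, which was higher in 13 of 24 samples, while its dimer partner RPB3 (YIL021W) was at 130.7 ± 6.5 TPM. The second-largest subunit RPB2 (YOR151C) had 128.2 ± 4.5 TPM. RPB9 (YGL070C), which contributes to start site choice and fidelity, had 123.6 ± 12.1 TPM. The largest subunit RPO21 (YDL140C), which carries the repeated C-terminal domain, had the lowest TPM of the class at 80.8 ± 4.5. The lowest class member thus lay 2.92 times below the highest. The place of RPO21 below the short RPB9 (369 bases) rests on the length scaling of TPM.

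Levels of the polymerase I subunits lay closer together, with 1.73 times between the lowest and the highest mean. RPA34 (YJL148W) and RPA49 (YNL248C), which pair in a module related to general initiation factors of polymerase II, led with 103.9 ± 25.1 and 103.3 ± 23.5 TPM. The stalk genes RPA14 (YDR156W) and RPA43 (YOR340C) had 78.9 ± 16.1 and 68.1 ± 22.2 TPM, and RPA12 (YJR063W), the RNA cleavage subunit, had a mean of 70.5 TPM over a range of 48.6 to 123.3. The large subunits RPA135 (YPR010C) and RPA190 (YOR341W) were lowest at 62.8 ± 19.4 and 60.1 ± 14.8 TPM, with RPA135 above RPA190 in 14 of 24 samples. Their place below the short RPA12 (378 bases) and RPA14 (414 bases) rests on the length scaling of TPM. In the S288C annotation, a short reading frame, YDR157W, overlaps RPA14 on the same strand, and it held a mean of 5.17 counts per sample beside 277 for RPA14.

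Polymerase III genes had the lowest class mean. RPC31 (YNL151C) and RPC53 (YDL150W) led with 74.3 ± 16.0 and 71.5 ± 10.4 TPM, and the cleavage and termination subunit RPC11 (YDR045C) had 56.5 ± 8.8 TPM. RPC31 acts in initiation together with RPC82 (YPR190C, 35.4 ± 4.7 TPM) and RPC34 (YNR003C, 37.4 ± 5.2 TPM), so RPC31 was well above its partners in level. RPC53 pairs with RPC37 (YKR025W, 35.9 ± 8.0 TPM) in a termination module. Of the large subunits, RET1 (YOR207C) was at 45.5 ± 8.0 TPM and was above RPO31 (YOR116C, 29.2 ± 3.0 TPM), whose highest sample had 38.1 TPM. The stalk genes RPC17 (YJL011C) and RPC25 (YKL144C) closed the order at 24.4 ± 6.1 and 22.2 ± 4.8 TPM, and RPC17 was the higher of the pair in 16 of 24 samples. The smallest expected count of any of the 28 genes in any sample was 63, in RPC17.

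**Figure D1:**
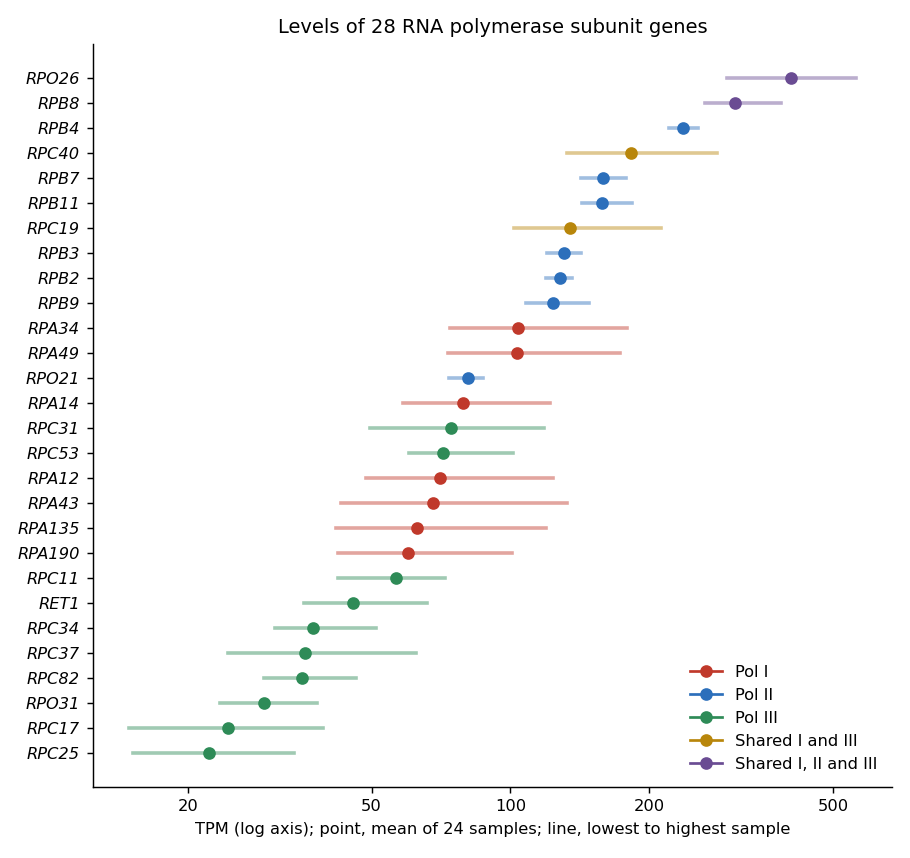
Level of each of the 28 subunit genes in TPM on a log axis, with the mean of 24 samples as a point, the lowest to the highest sample as a line, and colour for the class. RPO26 and RPB8 stand at the top, most polymerase III genes at the bottom, and lines of the polymerase II genes are short while those of the polymerase I genes are long.

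The largest differences in these genes were between technical replicate numbers. All 7 polymerase I genes rose in technical replicate 3 relative to technical replicate 1, as did 9 of 10 polymerase III genes and the 4 shared genes, whereas 1 of 7 polymerase II genes did. In all, 21 of 28 subunit genes rose and 0 fell at an FDR of 0.01, against 26.2% of 5142 genes that rose and 23.1% that fell. The median log2 fold change was 0.59 for polymerase I, 0.37 for polymerase III, 0.48 for RPC40 and RPC19, 0.31 for RPO26 and RPB8 and 0.08 for polymerase II, and it was 0.01 over all genes tested. The test was edgeR's quasi-likelihood test on counts with the technical replicate number added to the study's model of speed and biological replicate, and p-values were adjusted over all genes by Benjamini-Hochberg. In bulk RNA, more cells with a message and more message per cell cannot be told apart, and neither can a rise of these genes and a fall of the rest of the library.

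Sample values for one gene are given in CPM, counts scaled to library sizes with TMM factors, which is not comparable between genes of different length. RPA43, a subunit of the stalk that docks the initiation factor Rrn3, had 40.3 CPM in its lowest sample of technical replicate 1, a median of 47.8 and 59.6 in its highest (8 samples). The same gene ran from 46.8 over 56.9 to 61.8 CPM in technical replicate 2 and from 68.6 over 82.5 to 120 CPM in technical replicate 3. All 8 samples of technical replicate 3 were thus above the other 16, and technical replicates 1 and 2 overlapped. The fitted log2 fold change of 3 against 1 was 0.82 ± 0.09 (SE), or 1.76-fold, with an adjusted p of 4.5e-08 by edgeR.

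RPA190, the largest subunit of polymerase I, showed the same order of groups. Its lowest, median and highest CPM were 241, 278 and 325 in technical replicate 1, 260, 305 and 310 in technical replicate 2, and 366, 411 and 553 in technical replicate 3. The second-largest subunit RPA135 had 169, 199 and 237 CPM in technical replicate 1 and 273, 322 and 465.6 CPM in technical replicate 3. Neither gene had a sample of technical replicate 3 within the range of technical replicate 1, and the log2 fold changes were 0.61 ± 0.05 for RPA190 (adjusted p = 2.5e-09, edgeR) and 0.73 ± 0.07 for RPA135 (adjusted p = 1.1e-08). In the S288C annotation RPA190 and RPA43 are adjacent and divergent.

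The other polymerase I genes had smaller changes with groups that were also apart. RPA49 had a range of 91.5 to 115 CPM in technical replicate 1 and of 138 to 209 CPM in technical replicate 3, with a log2 fold change of 0.58 ± 0.05 and the lowest adjusted p of the 28 genes, 7.9e-10. Its partner RPA34, with 45.1 to 57.5 and 65.3 to 105.7 CPM, changed by 0.59 ± 0.06 on the log2 scale. The stalk gene RPA14 rose by 0.48 ± 0.06, with 16.3 to 19.4 and 21.6 to 31.98 CPM, and the cleavage subunit RPA12 by 0.48 ± 0.08, from a median of 14.05 to one of 18.5 CPM. All 7 genes were higher in technical replicate 3 in each of the 8 pairs with the same speed and biological replicate.

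Polymerase II genes had narrow intervals around small values, of which 6 of 7 were above 0. Their mean level was 138.8 to 144.7 TPM in technical replicate 1 and 145.2 to 153.4 TPM in technical replicate 3, without overlap. Technical replicate 3 against 1 called RPB3 only, which rose by 0.10 ± 0.02 on the log2 scale (adjusted p = 3.1e-04, edgeR), with 109 to 118 CPM in technical replicate 1 and 116 to 126 CPM in technical replicate 3, so that the groups overlapped. The largest subunit RPO21 had a log2 fold change of 0.04 with a 95% interval of -0.02 to 0.09, and medians of 472 and 492 CPM. RPB2 was at 0.04 with an interval of 0.01 to 0.08. The stalk genes went different ways, with 0.09 for RPB7 (95% interval 0.02 to 0.16) and -0.06 for RPB4 (-0.12 to 0.00), and neither passed the threshold. RPB9 and RPB11 had 0.12 and 0.08, with intervals of -0.01 to 0.24 and -0.01 to 0.16. The intervals of all 7 polymerase I genes lay above the highest limit of any polymerase II gene, 0.24. Scaling by total counts in place of TMM raised all of these values, and 5 of 7 polymerase II genes then passed with a median of 0.13, beside 7 of 7 polymerase I genes with a median of 0.64. Of all genes, 1346 rose and 1190 fell with TMM, and 1765 rose and 884 fell with total counts.

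Among the polymerase III genes the fitted change ran from 0.16 to 0.61 on the log2 scale, and it ranged within parts of the enzyme as it did between them. The stalk genes RPC17 and RPC25 rose by 0.61 ± 0.09 and 0.50 ± 0.09, RPC31 of the initiation subcomplex by 0.55 ± 0.06 and the large subunit RET1 by 0.47 ± 0.04 (adjusted p = 6.6e-09 for RET1, edgeR). RET1 ran from 138 to 162 CPM in technical replicate 1 and from 192 to 245 CPM in technical replicate 3, without overlap. The other large subunit, RPO31, rose by only 0.16 ± 0.03 (adjusted p = 3.9e-04), and its groups overlapped at 130 to 148 and 142 to 182 CPM. The 95% interval of RPO31, 0.09 to 0.23, lay below that of RET1, 0.38 to 0.56, whereas the intervals of the large subunits of polymerase I overlapped at 0.50 to 0.71 for RPA190 and 0.59 to 0.87 for RPA135. The difference between genes was not itself tested. RPC53 and RPC37 rose by 0.36 ± 0.04 and 0.38 ± 0.09, RPC11 by 0.35 ± 0.07 and RPC34 by 0.32 ± 0.05. RPC17, RPC31, RET1, RPC53 and RPC34 had no overlap between technical replicates 3 and 1, for example 5.27 to 8.29 in technical replicate 1 against 8.85 to 13.5 CPM in technical replicate 3 for RPC17. For the same groups, RPC31 had 33.3 to 46.3 and 52.2 to 77.1 CPM, RPC53 had 76.3 to 84.6 and 97.6 to 125 CPM, and RPC34 had 27.8 to 33.2 and 34.6 to 44.9 CPM. The groups overlapped in RPC25 at 8.11 to 12.7 and 11.59 to 17.6 CPM, in RPC37 at 22.7 to 31.4 and 28.3 to 47.4 CPM, and in RPC11 at 7.44 to 10.03 and 9.22 to 12.4 CPM. RPC82 had 0.18 ± 0.06 and an adjusted p of 0.0101 that did not pass, and it passed with DESeq2, with edgeR's legacy fit, with total counts, within biological replicate 2 and in 6 of 24 fits that left out 1 sample.

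The genes shared by several polymerases moved with polymerases I and III. RPC40 had a lowest, median and highest CPM of 128, 147 and 164 in technical replicate 1, of 152, 165 and 179 in technical replicate 2 and of 191, 204 and 264 in technical replicate 3, and rose by 0.50 ± 0.05 on the log2 scale (adjusted p = 1.2e-08, edgeR). RPC19 rose by 0.47 ± 0.05, from a range of 29.1 to 37.5 CPM to one of 38.3 to 59.4. RPO26, which all 3 polymerases use, had 97.98, 120 and 131 CPM in technical replicate 1 and 138, 147 and 182 CPM in technical replicate 3, with a log2 fold change of 0.35 ± 0.05. RPB8 rose by 0.27 ± 0.04, from 79.3 to 90.9 CPM to 94.0 to 113 CPM. For these 4 genes no sample of technical replicate 3 lay within the range of technical replicate 1, and their values were higher in 8 of 8 pairs.

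**Figure D2:**
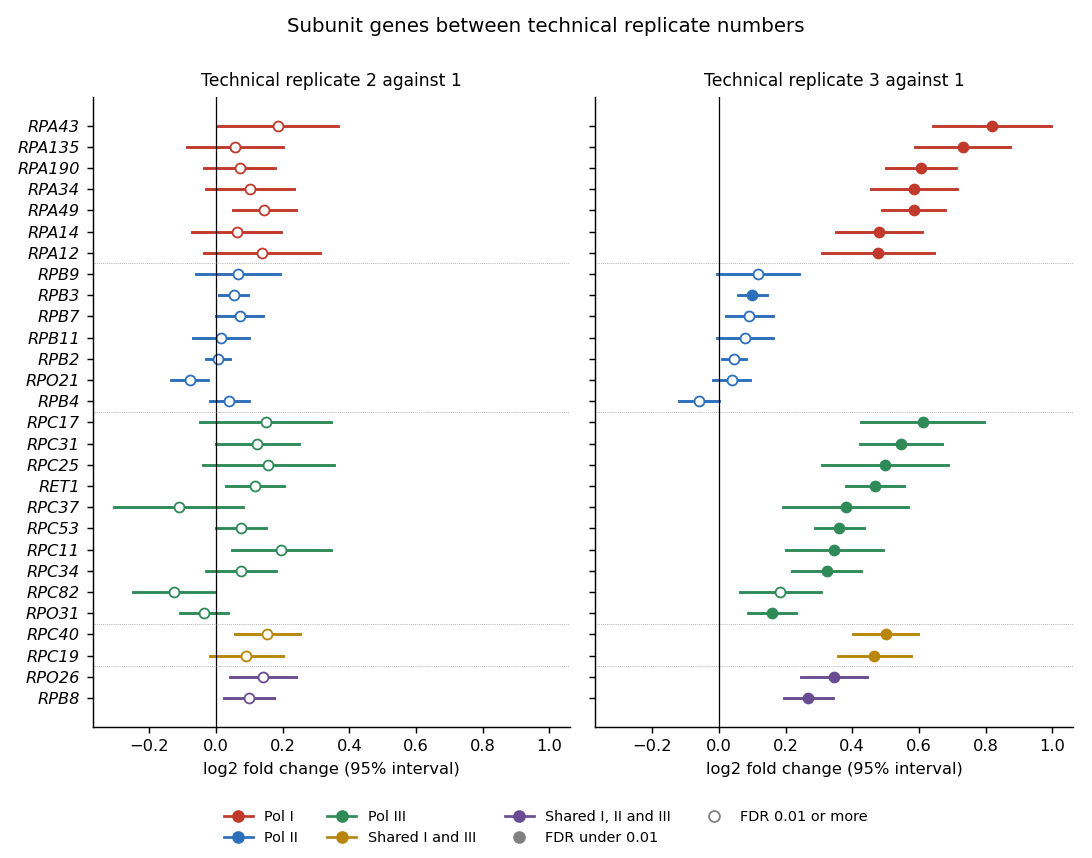
Log2 fold changes of the 28 subunit genes with 95% intervals from edgeR, for technical replicate 2 against 1 on the left and 3 against 1 on the right, with filled points for an FDR under 0.01 and colours for the classes. In the left panel all points are open, and in the right panel the 7 polymerase I intervals lie above the 7 polymerase II intervals, while the polymerase III points run from 0.16 in RPO31 to 0.61 in RPC17.

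Counted by gene, 16 of 28 had all 8 samples of technical replicate 3 above all 8 of technical replicate 1, against 12.8% of all genes, and they comprised 7 of 7 polymerase I genes, 5 of 10 polymerase III genes, the 4 shared genes and 0 of 7 polymerase II genes. In pairs of the same speed and biological replicate, 18 of 28 genes were higher in technical replicate 3 in all 8 pairs, against 22.5% of all genes. Relative to technical replicate 2, the picture was similar, with 21 genes that rose and 1 that fell, against 20.1% and 18.4% of all genes. There, 10 of 28 genes had groups that did not overlap, against 7.39% of all genes. The polymerase II genes that passed in this comparison were RPO21, which rose by 0.12 ± 0.03, and RPB4, which fell by 0.10 ± 0.03 (adjusted p = 0.0063, edgeR). RPO21 had 423 to 474 CPM in technical replicate 2 and 460 to 503 in technical replicate 3, and RPB4 had 129 to 147 and 123 to 134, so both pairs of groups overlapped. The call on RPB4 was lost with total counts (adjusted p = 0.088), with a trend on coding length (0.033), within each culture, and in 5 of 24 fits that left out 1 sample, those without B1T2 or B1T3 at 130 µL/s, B1T2 or B2T3 at 50 µL/s, or B2T2 at 290 µL/s. Of all genes, 1036 rose and 946 fell with TMM, and 1299 rose and 692 fell with total counts. RPC11 did not pass against technical replicate 2, with a log2 fold change of 0.15 and an interval of 0.01 to 0.29.

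Between technical replicates 1 and 2, 0 of 28 subunit genes passed with edgeR, DESeq2 or limma, against 1.81% of all genes that rose and 2.49% that fell. An unadjusted p under 0.05 with edgeR was found in 11 of 28, against 1316 of all 5142 genes. The values were mostly above 0, with a median log2 fold change of 0.10 for polymerase I and 0.04 for polymerase II. RPC40 had the lowest p, with 0.15 ± 0.05 and an adjusted p of 0.040. The interval of RPC11 reached 0.34, so that a difference of that size cannot be set aside at this spread.

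The 2 cultures were examined apart. In biological replicate 1, the median log2 fold change of technical replicate 3 against 1 was 0.61 for polymerase I, 0.04 for polymerase II and 0.40 for polymerase III, and in biological replicate 2 it was 0.57, 0.07 and 0.40. All 7 polymerase I genes passed within each culture, while 5 of 10 polymerase III genes passed in the first and 10 of 10 in the second. Over all genes, 14% rose and 14% fell in biological replicate 1, and 22.9% rose and 19.8% fell in biological replicate 2, so calls were more frequent in the second culture in general. Technical replicate 2 against 1 gave 0 calls in biological replicate 1 and 7 in biological replicate 2, where RPA190, RPA49, RPA43, RET1 and RPC40 were higher and RPO21 and RPC82 lower. The shares of all genes there were 0.214% higher and 2% lower in biological replicate 1 and 3.91% higher and 3.68% lower in biological replicate 2. The interaction of biological with technical replicate, which tests that difference itself, called 0 of 28 genes with edgeR, DESeq2 or limma, against 6.34% of all genes. An unadjusted p under 0.05 in edgeR was found for 3 of 28, RPB9, RPC82 and RPC11, against 1464 of all 5142 genes.

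**Figure D3:**
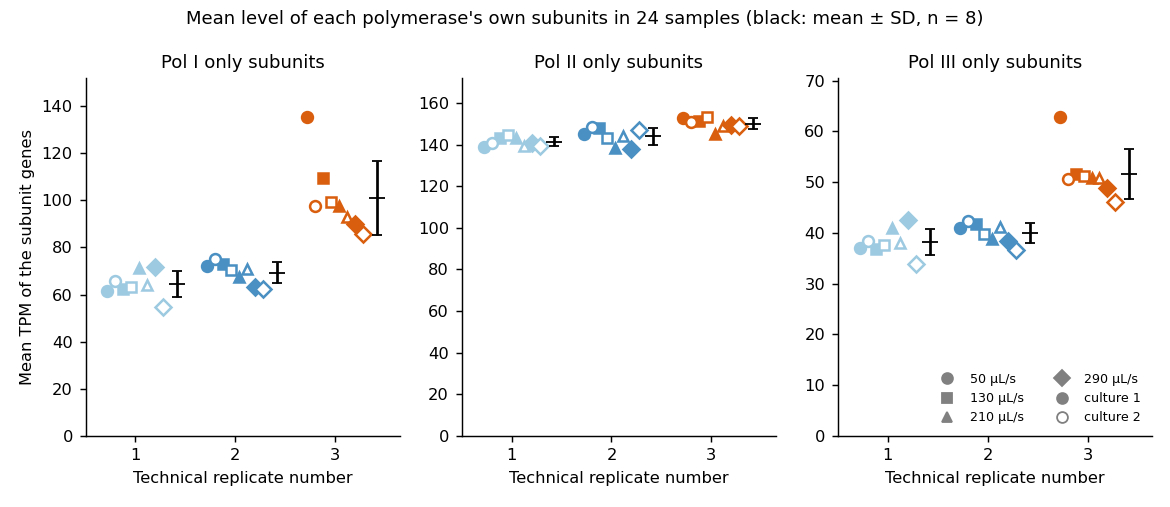
Mean TPM of the subunits that belong to polymerase I only, II only or III only, for each of the 24 samples by technical replicate number, with symbols for speed, filled points for biological replicate 1, open points for biological replicate 2, and mean ± SD (n = 8) in black. Polymerase I means are 64.3 ± 5.5, 69.3 ± 4.5 and 101.0 ± 15.7 TPM in technical replicates 1, 2 and 3, and polymerase II means are 141.3 ± 2.2, 144.0 ± 4.1 and 150.1 ± 2.6 TPM.

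The balance between the enzymes moved accordingly. The ratio of the mean level of polymerase I subunits to that of polymerase II subunits was 0.455 ± 0.037 in technical replicate 1, 0.481 ± 0.026 in technical replicate 2 and 0.673 ± 0.098 in technical replicate 3 (SD, n = 8 each). Its highest value in technical replicates 1 and 2 was 0.508 and its lowest in technical replicate 3 was 0.576, so these groups did not overlap. For polymerase III over polymerase II the ratio was 0.270 ± 0.018, 0.278 ± 0.012 and 0.344 ± 0.030. Polymerase I over polymerase III went from 1.68 ± 0.04 to 1.73 ± 0.04 and 1.95 ± 0.12, so the polymerase I messages were up by more than the polymerase III messages. No test was made on these ratios, which sum up the genes tested above.

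A single sample stood apart within technical replicate 3. 50 µL/s B1T3 held the highest value of all 24 samples for 20 of 28 genes, which included 7 of 7 polymerase I genes and 9 of 10 polymerase III genes, and its ratio of polymerase I to polymerase II was 0.888, while the next sample had 0.725. In RPA190 it had 553 CPM beside 403 in its counterpart of the other culture, 50 µL/s B2T3. At the other end, 290 µL/s B2T1 was lowest for 15 of 28 genes, 6 of 7 polymerase I genes among them, and had the lowest ratio at 0.393. The shares of all genes with their highest or lowest value in these samples are not given here, so these counts cannot be read as particular to the subunit genes. Without 50 µL/s B1T3, 21 of 28 genes still rose in technical replicate 3 against 1 and the median over the 28 was 0.33 in place of 0.37. The share of expected counts in the 50 most abundant genes was 26.4% to 28.8% in technical replicate 3, lowest in 50 µL/s B1T3, and 29.1% to 31.5% in the other 16 samples. Mean fragment lengths had a median of 186 bases in technical replicate 1, 187 in 2 and 185 in 3, and the part of either measure in the result was not tested.

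**Figure D4:**
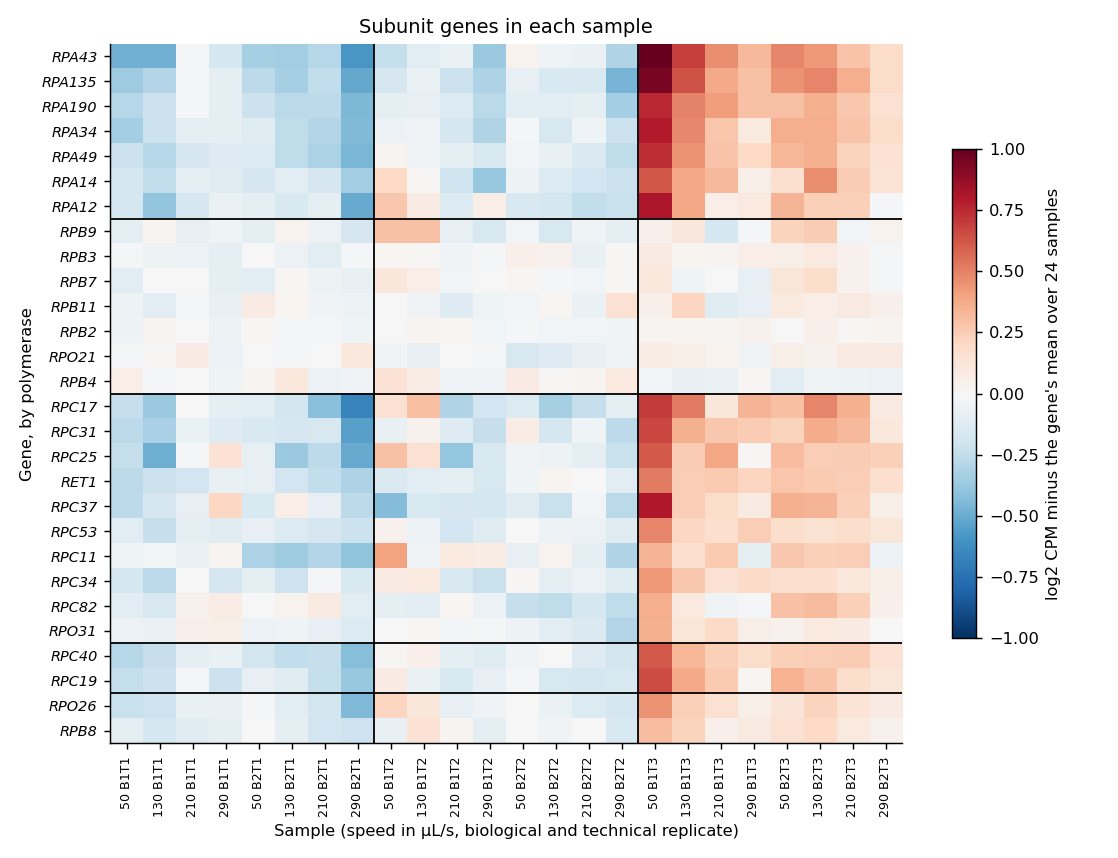
Log2 CPM of the 28 genes minus each gene's mean over the 24 samples, from blue (lower) to red (higher), with samples ordered by technical replicate, biological replicate and speed, and genes by class. The 8 samples of technical replicate 3 at the right are red in the polymerase I, polymerase III and shared genes and near white in the polymerase II genes, and the darkest column is 50 B1T3.

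Pipetting speed was the treatment of the study. With the model of speed and biological replicate, 0 of 28 subunit genes passed at 130, 210 or 290 µL/s relative to 50 µL/s with edgeR, DESeq2 or limma, and 0 of 28 had an unadjusted p under 0.05 with edgeR. Among all genes, the share that passed was 0% at both lower speeds and 0.0389% at the highest. An unadjusted p under 0.05 with edgeR was found for 88, 158 and 547 of 5142 genes at 130, 210 and 290 µL/s. The fitted values were mostly below 0, with a median over the 28 genes of -0.05 at 130, -0.08 at 210 and -0.15 at 290 µL/s. At 290 µL/s the median was -0.27 for polymerase I, -0.14 for polymerase III and -0.04 for polymerase II, beside -0.01 over all genes tested. These are values and not calls, since the 95% interval of each gene included 0. The gene with the lowest p at 290 µL/s was RPC11, whose lowest, median and highest CPM were 7.95, 10.7 and 12.96 at 50 µL/s and 7.44, 9.32 and 10.4 at 290 µL/s, with overlap. Its log2 fold change was -0.23 with an interval of -0.47 to 0.00 (adjusted p = 0.47, edgeR). Estimates of the 7 polymerase II genes ran from -0.14 to 0.02. For RPO21 and RPB2 among them, the intervals were narrow enough to bound the difference, with 0.02 for RPO21 (-0.07 to 0.11) and -0.01 for RPB2 (-0.06 to 0.04). For RPA43 the interval ran from -0.79 to 0.19 and bounded it far less.

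Samples with the same replicate numbers deviated together, so that speeds were also compared with the technical replicate number as a block. In that fit 1 of 28 genes fell at 290 µL/s, RPA49, against 2.16% of all genes that fell. An unadjusted p under 0.05 with edgeR was found in 18 of 28, against 1508 of all 5142 genes. RPA49 changed by -0.23 ± 0.05 on the log2 scale (adjusted p = 0.0066, edgeR). In biological replicate 1 it had 108, 128 and 209 CPM at 50 µL/s and 115, 112 and 144 CPM at 290 µL/s in technical replicates 1, 2 and 3. In biological replicate 2 the values were 114, 123 and 158 CPM at 50 µL/s and 91.5, 105 and 138 CPM at 290 µL/s. RPA49 was thus lower at 290 µL/s in 5 of 6 pairs, with ranges that overlapped between the speeds. The call held in 16 of 24 fits with 1 sample left out and was lost without 290 µL/s B2T1, B1T2, B2T2, B1T3 or B2T3 or without 50 µL/s B2T1, B2T2 or B1T3, where the adjusted p reached 0.025. The count of called subunit genes went from 0 without 290 µL/s B2T1 to 8 without 290 µL/s B1T1. Over all genes, the count of calls also moved, from 70 without 290 µL/s B1T2 to 446 without 290 µL/s B1T1. The change in the subunit count is thus not particular to these genes.

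The other polymerase I genes had block estimates between -0.29 and -0.18, all with 95% intervals below 0, and adjusted p-values from 0.028 for RPA14 to 0.088 for RPA43, and RPC19 came nearest to the threshold of the other classes, with -0.25 ± 0.06 and an adjusted p of 0.0101. All 7 were lower at 290 µL/s in 5 of 6 pairs, and the exception was in each case the pair B1T1, in which 0 of 7 polymerase I genes and 1 of 10 polymerase III genes were lower. Over the 28 genes, 2 were lower at 290 µL/s in all 6 pairs, RPB3 and RPC53, against 5.31% of all genes. Within single technical replicate numbers the median of the polymerase I genes was -0.04 in 1, -0.22 in 2 and -0.44 in 3, and the polymerase II medians were -0.03, -0.04 and -0.05. No subunit gene passed within any of the 3. Whether the speed effect differed between technical replicate numbers was tested by their interaction, which called 0 of 28 genes (0 with an unadjusted p under 0.05 in edgeR, 1 in DESeq2) and 0% of all genes. The interaction of speed with biological replicate also called 0 of 28 genes and 0% of all genes with edgeR, DESeq2 and limma, with 0 of 28 at an unadjusted p under 0.05. Of all 5142 genes, 136 had an unadjusted p under 0.05 with edgeR in the interaction with technical replicate and 58 in that with biological replicate. The fits over all samples include 50 µL/s B1T3, and so does the fit within technical replicate 3. In that fit, B2T3 is the only other sample at 50 µL/s. When B1T3 was left out of the fits over all samples, 0 of the 28 genes were called at 290 µL/s. Over all genes, fits that left out any 1 sample gave 0 to 3 calls without the block and 70 to 446 with it. The median of the 28 genes in the fits that left out 50 µL/s B1T3 was -0.06 without the block and -0.11 with it. At 130 and 210 µL/s the median was 0.03 and -0.01 without that sample.

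**Figure D5:**
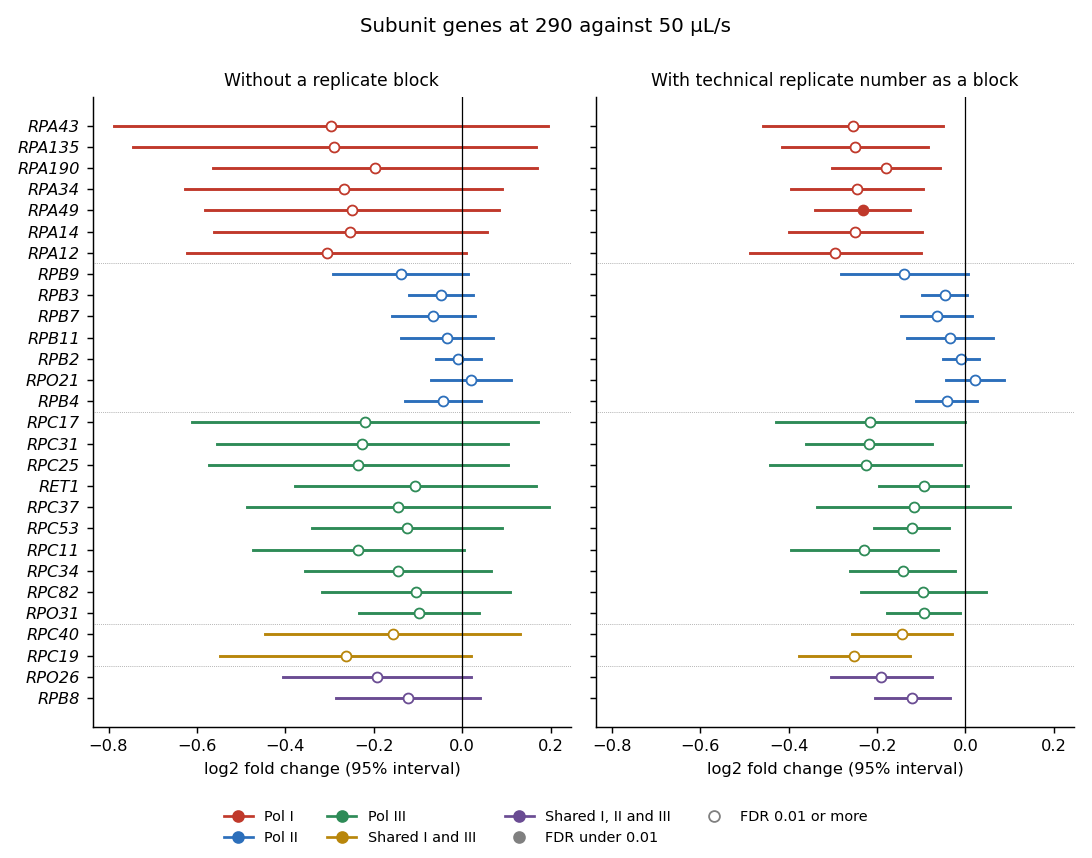
Log2 fold changes of the 28 subunit genes at 290 against 50 µL/s with 95% intervals from edgeR, without a block on the left and with the technical replicate number as a block on the right, with a filled point for an FDR under 0.01. The estimates are nearly the same in both panels, the intervals are shorter on the right, and RPA49 is the filled point.

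Between the 2 cultures, no difference passed in these genes. With a single culture on each side, these tests set the difference against the spread between samples and not between cultures. Biological replicate 2 against 1 called 0 of 28 subunit genes with edgeR, DESeq2 and limma. An unadjusted p under 0.05 in edgeR was found in 2 of 28, against 540 of all 5142 genes. Of all genes, 0% were called with edgeR, and DESeq2 called 13 of 5142. With the technical replicate number as a block the count of calls stayed at 0 of 28, against 0.37% of all genes. There, 9 of 28 had an unadjusted p under 0.05 with edgeR, against 1132 of all 5142 genes. RPO31 had the lowest p, with 136 to 182 CPM around a median of 146 in biological replicate 1 (12 samples) and 116 to 152 CPM around 137 in biological replicate 2, which overlap. Its log2 difference was -0.12 with an interval of -0.21 to -0.02 (adjusted p = 0.38, edgeR). The median over the 28 genes was -0.07, beside 0.00 over all genes tested, 24 of 28 values were below 0, and without 50 µL/s B1T3 the median was -0.01.

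Genes that work beside the polymerases were read from lists for technical replicate 3 against 1, with background shares of 26.2% and 23.1% as above. Of 9 polymerase I transcription factors, 4 rose and 1 fell, with a median log2 fold change of 0.14. RRN11 of the core factor rose by 0.31 ± 0.07, HMO1, a high mobility group protein of ribosomal DNA chromatin, by 0.23 ± 0.02 and RRN3, which brings the enzyme to the promoter, by 0.20 ± 0.04, and RRN5 of the upstream activating factor fell by 0.21 ± 0.05. Of 22 general initiation and elongation factors of polymerase II, 1 rose and 4 fell, with a median of -0.02. SPT15, the TATA-binding protein that serves all 3 polymerases, rose by 0.14 ± 0.03, and TFA2 of TFIIE fell by 0.16 ± 0.03. Of 7 polymerase III factors, PZF1, the 5S RNA gene factor TFIIIA, rose by 0.19 ± 0.05 and BDP1 of TFIIIB fell by 0.09 ± 0.03, with a median of 0.01. For the polymerase III factors both shares were below those of all genes.

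Of 8 genes that assemble or import polymerases, 6 rose and 0 fell, with a median of 0.26. Among them, the GTPase genes GPN2 and NPA3 rose by 0.38 ± 0.07 and 0.29 ± 0.04, RTP1 by 0.36 ± 0.07 and BUD27 by 0.27 ± 0.05. The mitochondrial RNA polymerase RPO41 and its factor MTF1 both rose, by 0.11 ± 0.03 and 0.21 ± 0.05. The ribosome biogenesis list, like the other lists, was chosen with earlier results of these data known, so its count is no independent support. All 32 of its genes rose, with a median of 0.63, beside 0.59 for the polymerase I subunits. The largest of these were NSR1, a nucleolin-like protein, at 1.03 ± 0.10, ENP2 at 0.99 ± 0.13, NOP7, a large subunit assembly factor, at 0.86 ± 0.09 and RRP12, which acts in export of ribosomal subunits, at 0.86 ± 0.10. At 290 against 50 µL/s, 0 of these 32 genes passed with edgeR, against 0.0389% of all genes, and 1 had an unadjusted p under 0.05, against 547 of all 5142 genes. All 32 values were below 0, with a median of -0.23, against 2732 of all 5142 genes below 0. With the technical replicate number as a block, 1 of the 32 fell, GAR1 of the box H/ACA particles, against 2.16% of all genes that fell, and the median was -0.19. An unadjusted p under 0.05 with edgeR was found in 21 of 32, against 1508 of all 5142 genes. The 4 α-specific and 3 a-specific mating genes also moved between technical replicates 3 and 1, with 3 of 4 that rose and 2 of 3 that fell, and medians of 0.16 and -0.26.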

How the data were processed

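Poly(A) RNA of 24 yeast samples was sequenced, and speed and replicates were taken from the sample labels. The authors trimmed reads with fastp 0.23.2, aligned them to the W303 genome with STAR 2.7.10a and counted by strand with RSEM. The deposited expected counts, estimated reads per gene, were rounded here, and 23.8% had not been whole. The deposited TPM values were scaled for length and library by the authors.

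A gene had to average more than 1 count over the samples, which 51 genes did not. Tests used edgeR 4.0.16 under R 4.3.3 with TMM factors, glmQLFit and glmQLFTest in the study's model, speed + biological replicate, at an FDR of 0.01, and with technical replicate added for contrasts of technical replicates. DESeq2 1.42.0, limma 3.58.1 (voom), other scalings, filters and thresholds, and each sample left out were alternatives. In data simulated from these samples for technical replicate 3 against 1, 84% of genes changed 1.25-fold were recovered. Numbers were handled in Python 3.11.15.

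Samples with the same biological and technical replicate numbers at different speeds deviated together from a fit of speed and biological replicate. Their correlation across 4767 genes was 0.26 to 0.89 (median 0.68) and over 0.1 in 36 of 36 pairs. The technical replicate number was therefore used as a block, from the data and not from a statement in the labels. The block was added to speed and biological replicate and takes each number as alike in both cultures. The interaction of biological with technical replicate, called in 6.34% of all genes, was not part of it.

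Members and gene lists were chosen with earlier results of these data known. Named in full were all members, and of each list at most 4 genes past the FDR, those with the largest fold change. Ranges over samples were given for members past the FDR in technical replicate 3 against 1 and, at 290 µL/s, between cultures and for technical replicate 2 against 1, for the lowest p. Gene names came from the S288C annotation (R64, RefSeq), which matched 5151 of the 5193 genes. Since it is not the W303 build, promoter and protein sequences are not used here and coordinates are not printed. Its coordinates served only to find the neighbours of the subunit genes, their arrangement and their overlap. No column of other samples was found, and the growth assay is not analysed here.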

Additional observations from a re-analysis of the deposited data

Results flagged for a closer look

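RPO31 in 50 µL/s B1T3 was at 182.3 CPM, apart from the other 5 samples at that speed, whose highest was 146 CPM. Its gap to the nearest sample was 0.789 of the range of the 6. It was the only such value in 112 groups of 6 samples (28 genes at 4 speeds). The nominal rate of the rule is 5% of groups by chance, for values of 1 kind. These groups mix technical replicate numbers and the genes share the same samples, so that rate need not hold here. The same sample was the highest for 20 of the 28 genes, a count that is not given here for all genes. No subunit gene had an interaction of speed, culture or technical replicate past the threshold.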

How the results depend on the processing

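Of 43 calls on single subunit genes, 0 reversed under any alternative, 1480 repeated values kept their side of the threshold and 25 missed it, 16 of them within biological replicate 1 alone. For subunit genes the counts changed to 1 at 290 µL/s with the replicate block, with or without a coding length trend, in place of 0, to 2 between technical replicates 2 and 1 at an FDR of 0.05 and 7 within biological replicate 2, in place of 0, and to 11 for technical replicate 3 against 2 within biological replicate 1, in place of 22. Over all genes, 290 against 50 µL/s gave 2 calls and then 1 with DESeq2 size factors or limma, 0 with total counts or with only these speeds, 11 with DESeq2, 202 with the replicate block and 185 with the block and a coding length trend, and 0, 11 and 47 within technical replicates 1, 2 and 3. Within technical replicate 3, 130 and 210 µL/s gave 1 call each. The cultures differed in 0 genes and then in 8 at an FDR of 0.05, 13 with DESeq2, 19 with the replicate block, 33 with the block and a length trend, and 401 and 121 within technical replicates 2 and 3. Technical replicate 2 against 1 gave 221 calls, and then 541 at an FDR of 0.05, 349 with DESeq2, 114 and 390 within cultures 1 and 2. Within culture 1, technical replicate 3 gave 1436 calls against 1 (2536) and 1151 against 2 (1982). The interaction of culture with technical replicate gave 691 calls at an FDR of 0.05 in place of 326. The causes were not tested, beyond the smaller number of samples within a culture or technical replicate.

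With 1 sample left out, all-gene counts ran from 0 to 3 at 290 µL/s, 0 to 1 between cultures, 115 to 324, 2361 to 2636 and 1787 to 2026 for technical replicates 2 against 1, 3 against 1 and 3 against 2, and 221 to 378 for the interaction of culture with technical replicate. Subunit counts ran from 0 to 2, 21 to 22 and 21 to 22 for the technical contrasts. In the replicate block, 290 µL/s ran from 70 without 290 µL/s B1T2 to 446 without 290 µL/s B1T1, and the cultures from 9 to 51. The legacy quasi-likelihood fit, the interaction of speed with technical replicate, the pairs of samples and the leave-one-out fits with the block were chosen after seeing the data. The genes with the fewest counts, RPC17, RPC11 and RPC25, had means of 113, 130 and 155 per sample, and the shares of counting error and of spread between samples in their intervals were not separated.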

Other observations

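Chromosomal neighbours of the subunit genes were looked up in the S288C annotation after the values had been seen, and their log2 fold changes in technical replicate 3 against 1 are given as values. Of 53 neighbours that are no subunit genes, 21 rose and 11 fell with edgeR at an FDR of 0.01, with a median of 0.12. Of all genes, 26.2% rose and 23.1% fell, with a median of 0.01. The neighbours named here were picked from them. RPC25 (0.50) stands divergent to LTV1, a ribosome assembly factor gene, which had 0.81. RPC37 (0.38) stands divergent to DBP7, an RNA helicase gene, which had 0.43. RPC17 (0.61) shares its strand with the neighbour NOP9 (0.61), and RPA135 (0.73) with MRA1 (0.90). RET1 (0.47) is convergent with NOC2 (0.67). RPO26 (0.35) stands divergent to PZF1 (0.19), which makes the polymerase III factor TFIIIA. RPC11 (0.35) is convergent with HEM13, a heme synthesis gene, which had -1.11. RPC53 (0.36) shares its strand with ATG9, an autophagy gene (-0.44), and RPC19 (0.47) stands divergent to YNL115C (-0.45).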
